A study of Homo sapiens with 6 samples.

Results

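The human mitochondrial genome carries 37 genes, and this account follows all of them through 6 RNA sequencing libraries of 2 prostate cancer cell lines. The members were the rows of the deposited table of 58735 genes whose Ensembl IDs belong to the mitochondrial chromosome in GENCODE release 29. They comprise 13 messenger RNA genes, 2 ribosomal RNA genes and 22 transfer RNA genes, and all 37 were found. C4-2B MDVR is a line derived from C4-2B that tolerates the androgen receptor inhibitor enzalutamide, and H660 is a neuroendocrine prostate cancer line. In each line there was 1 library with PLXND1 siRNA 1, 1 library with PLXND1 siRNA 2 and 1 library with a control siRNA. PLXND1 encodes Plexin D1, a surface receptor for semaphorins, and the study asked what its loss does to resistant prostate cancer cells. The labels give no age, passage, time after transfection or separate culture for any library. The p-values given here therefore measure the spread between these libraries, which may be technical, and the spread within a line comes from 2 libraries that carry different siRNAs.

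Mitochondrial DNA is a small circle that is transcribed from both strands into long precursors. Transfer RNAs lie between most of the other genes, and their excision by ribonucleases frees the messenger and ribosomal RNAs. Most genes lie on the plus strand of the reference sequence, while MT-ND6 and a minority of the transfer RNA genes, often called light-strand genes, lie on the minus strand. The messenger RNAs encode subunits of respiratory complexes I, III, IV and V, which also contain many nuclear-encoded subunits, and the mitochondrial ribosome combines both ribosomal RNAs with nuclear-encoded proteins. By class and strand, 28 of the 37 genes are on the plus strand (12 messenger, 2 ribosomal and 14 transfer RNA genes) and 9 are on the minus strand (MT-ND6 and 8 transfer RNA genes).

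The genome is packed so tightly that some genes share bases, and the stretches where 2 pairs of messenger RNA genes overlap are shown because fragments from them cannot be assigned to 1 gene. MT-ATP8 and MT-ATP6, which encode subunits of ATP synthase, share the 46 bases in capitals at chrM:8497-8602 (GRCh38, plus strand, sequence from GENCODE 29). MT-ND4L and MT-ND4, subunits of complex I, share the 7 bases in capitals at chrM:10737-10789 on the same strand.
MT-ATP8/MT-ATP6: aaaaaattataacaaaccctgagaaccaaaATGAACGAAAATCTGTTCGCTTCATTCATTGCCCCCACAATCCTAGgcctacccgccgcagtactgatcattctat
MT-ND4L/MT-ND4: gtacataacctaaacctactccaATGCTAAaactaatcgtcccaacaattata

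The transfer RNA genes on which the results turn are shown next, each 5′ to 3′ on its own strand with the anticodon in capitals, again from GENCODE 29. MT-TN at chrM:5657-5729, MT-TC at chrM:5761-5826, MT-TP at chrM:15956-16023 and MT-TE at chrM:14674-14742 are on the minus strand. MT-TL1 at chrM:3230-3304, MT-TT at chrM:15888-15953 and MT-TR at chrM:10405-10469 are on the plus strand. The first 3 held most of the transfer RNA fragments, MT-TL1 and MT-TT follow them on the plus strand, and MT-TE and MT-TR had the patterns described below.
MT-TN: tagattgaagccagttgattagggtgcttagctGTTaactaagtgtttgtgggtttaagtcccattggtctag
MT-TC: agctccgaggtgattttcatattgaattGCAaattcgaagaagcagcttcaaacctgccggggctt
MT-TP: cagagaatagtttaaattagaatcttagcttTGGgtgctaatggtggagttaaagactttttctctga
MT-TE: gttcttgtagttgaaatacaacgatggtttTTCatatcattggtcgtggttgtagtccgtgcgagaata
MT-TL1: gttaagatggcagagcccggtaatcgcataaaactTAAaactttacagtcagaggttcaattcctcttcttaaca
MT-TT: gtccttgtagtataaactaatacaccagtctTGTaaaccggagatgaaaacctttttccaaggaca
MT-TR: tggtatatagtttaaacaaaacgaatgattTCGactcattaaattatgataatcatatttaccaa

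Depth was 17655802 to 24105369 fragments per library, recovered from the deposited FPKM (the authors' unit, fragments per kilobase of exon scaled to library size). The lines matched their labels: 7 of 7 luminal prostate markers averaged at least 1 FPKM in C4-2B MDVR and 0 of 7 did in H660, whereas 8 of 8 neuroendocrine markers did in H660 and 1 of 8 in C4-2B MDVR. Fibroblast, immune, endothelial and red cell marker sums stayed at or under 10.6 FPKM in every library. By the same count, 1 of 5 fibroblast markers averaged at least 1 FPKM in each line. In H660, 1 of 5 immune and 1 of 3 endothelial markers did so, and in C4-2B MDVR 0 did. The endothelial marker was CDH5, at 7.60 and 7.42 FPKM in the H660 knockdown libraries and 9.93 FPKM in the H660 control. PLXND1 itself was at 21.2% and 41.8% of its control with siRNA 1 and siRNA 2 in C4-2B MDVR, and at 83.5% and 82.6% in H660. The C4-2B MDVR control library stood apart from the other 5 in its mitochondrial share. Every knockdown value in C4-2B MDVR rests on that library and has no value without it. In bulk RNA of this kind, fewer cells of a type and less RNA per cell cannot be told apart.

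The 3 classes differed in their share of fragments, and most of the messenger RNAs were among the most abundant transcripts of every library. Transfer RNA genes gave 0.0132% to 0.0482% of fragments, far below the 2.84% to 7.53% of messenger RNA genes. The ribosomal RNA genes, at 0.525% to 2.07%, were much nearer to the messenger RNA genes. Between 10 and 12 of the 13 messenger RNA genes were among the 20 genes with the highest FPKM. Over all mitochondrial genes the number was 12 to 17, so other classes were also present there in every library. Messenger RNA genes gave 6.28% and 5.66% of all fragments with siRNA 1 and siRNA 2 in C4-2B MDVR, against 2.84% in its control. In H660 they gave 7.53% and 7.52% in the knockdown libraries, against 7.08% in the control. The ribosomal RNA genes gave 1.13% and 1.14% of fragments in the C4-2B MDVR knockdown libraries, against 0.525% in the control. In H660 the ribosomal share was 1.90% and 2.07% with the siRNAs, against 1.46% in the control. The transfer RNA genes gave 0.0341% (95% exact binomial interval 0.0333 to 0.0349) and 0.0342% (0.0334 to 0.0351) in the C4-2B MDVR knockdown libraries, against 0.0132% (0.0127 to 0.0137) in the control. In H660 they gave 0.0457% (0.0448 to 0.0466) and 0.0482% (0.0473 to 0.0491), against 0.0380% (0.0373 to 0.0389) in the control. For each class, both knockdown libraries of a line were above its control, and the H660 knockdown libraries were above those of C4-2B MDVR. Intervals cover counting error only, since the fragments carry no molecular identifiers. Selection for poly(A) tails is not described in the sources used here, and the shares of the classes depend on it.

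**Figure D1:**
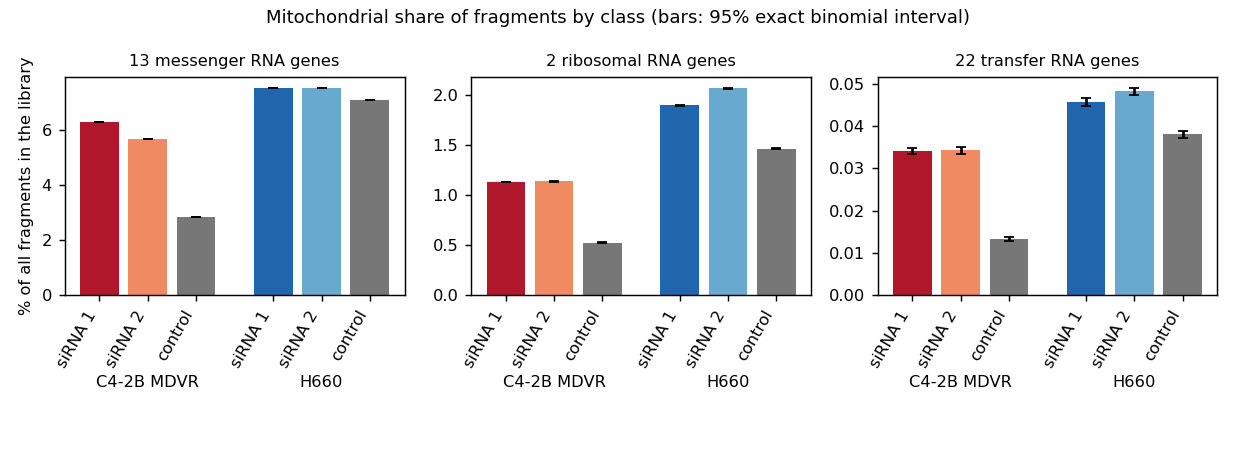
Share of all fragments in each library that fell on messenger, ribosomal or transfer RNA genes of the mitochondrial genome, in percent, with 95% exact binomial intervals. The C4-2B MDVR control has the lowest bar in each class, at 2.84%, 0.525% and 0.0132%.

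Among the messenger RNAs, MT-CO1, the catalytic subunit of complex IV (cytochrome c oxidase), had the highest mean level in C4-2B MDVR. It had 12072 and 12484 FPKM with siRNA 1 and siRNA 2, against 5861 FPKM in the C4-2B MDVR control. In H660 it had 13102 and 12935 FPKM, against 12473 FPKM in the control. MT-CO2, which receives electrons from cytochrome c, had 13251 and 12875 FPKM in the H660 knockdown libraries and 11128 FPKM in the H660 control. MT-CO1 and MT-CO2 therefore lay side by side at the top in H660, at 12837 ± 326 and 12418 ± 1133 FPKM (SD, n = 3), a gap inside their spread. The lowest messenger RNA in every library was MT-ATP8, a small ATP synthase subunit, at 462 and 424 FPKM in the H660 knockdown libraries and 324 FPKM in the H660 control. In C4-2B MDVR it had 316 and 282 FPKM with the siRNAs, against 135 FPKM in the control. Its FPKM was 0.0347 to 0.0526 times that of MT-ATP6, with which it shares the bases shown above, so the split between them depends on how the authors' counting treated shared stretches.

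**Figure D2:**
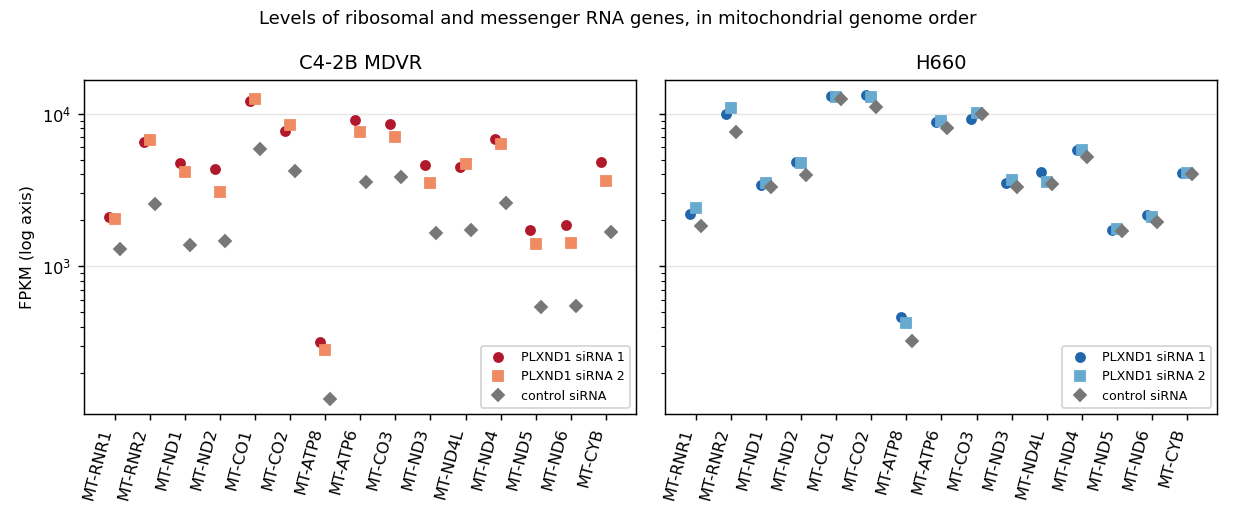
FPKM on a log axis of the 2 ribosomal and 13 messenger RNA genes in genome order, with 1 point per library, for C4-2B MDVR (left) and H660 (right). In C4-2B MDVR all 15 control points lie under both knockdown points, while in H660 the 3 points of most genes nearly coincide.

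In C4-2B MDVR the mitochondrially encoded genes were higher with both PLXND1 siRNAs than with the control, across every class, but none passed the test. Of the 36 members that passed the filter on low values, 32 were above the control in both knockdown libraries, beside 32.0% of all 15638 genes tested. At least a 2-fold excess in both libraries was found for 24 of 36 members, beside 2.12% of all genes tested. These were 11 of 13 messenger RNAs, 1 of 2 ribosomal RNAs and 12 of 21 transfer RNAs. By limma on log2(FPKM + 1) with Benjamini-Hochberg adjustment over all genes, 0 of 36 members were called, as were 0% of all genes. At an unadjusted p under 0.05 there were 26 of 36, all higher, beside 3.74% of all genes that were higher at that level. Limma's voom on the recovered fragments called 0 of 36 as well, with 24 at that level. That number was 12 without either one of the H660 siRNA libraries, which enter the estimate of the spread, 20 and 22 without the C4-2B MDVR siRNA 1 or siRNA 2 library, 13 with no filter and 15 with quantile normalization. MT-TL2, whose control value is 0, does not count under the 2-fold rule. The median change of the 13 messenger RNAs was 1.31 log2 units, beside 0.02 for all genes tested, and it was 1.40 with siRNA 1 and 1.09 with siRNA 2. Quantile normalization, which gives genes of the same rank the same value in every library, put this median at 0.0081.

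The messenger RNAs of complex I, which oxidises NADH, had the largest median knockdown change in C4-2B MDVR of the 3 complexes with more than 1 member. Their median change was 1.41 over 7 genes, beside 1.18 over 2 genes of complex V and 1.01 over 3 genes of complex IV. MT-ND1, at chrM:3307-4262 and the first messenger RNA after the ribosomal genes, had 4760 and 4169 FPKM in the C4-2B MDVR knockdown libraries, against 1372 FPKM in the control. Its change was 1.70 ± 0.20 log2 units (SE, limma, adjusted p = 0.411), and the knockdown libraries were at 3.47 and 3.04 times the control. MT-ND5, a proton-pumping subunit, had 1729 and 1404 FPKM with the siRNAs, against 542 FPKM in the control (1.52 ± 0.21, adjusted p = 0.465). MT-ND6, the 1 messenger RNA on the minus strand, at chrM:14149-14673, had 1868 and 1424 FPKM, against 544 FPKM in the control (1.58 ± 0.24, adjusted p = 0.466). For all 3 genes the siRNA 1 library was the higher of the knockdown pair, and neither knockdown library came near the control.

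The fitted changes of the other complex I genes and MT-CYB lay in a narrow band, from 1.28 to 1.41. Single libraries ranged more widely, from 1.07 for MT-ND2 with siRNA 2 to 1.55 for the same gene with siRNA 1. MT-ND2 had 4306 and 3083 FPKM in the C4-2B MDVR knockdown libraries, against 1472 FPKM in the control (1.31). MT-ND3 had 4608 and 3527 FPKM, against 1661 FPKM in the control (1.28), and MT-ND4 had 6834 and 6274 FPKM, against 2586 FPKM in the control (1.34). MT-ND4L had 4472 and 4693 FPKM with the siRNAs, against 1729 FPKM in the control (1.41). MT-CYB, the mitochondrially encoded subunit of complex III, had 4828 and 3603 FPKM, against 1683 FPKM in the control (1.31 ± 0.26, adjusted p = 0.641). MT-ND4L was the member of this band in which siRNA 2 gave the higher value.

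The complex IV and complex V messenger RNAs had smaller fitted changes in C4-2B MDVR, where the 2 siRNAs are averaged. With siRNA 2 alone the groups overlapped. There MT-CO1 (1.091) and MT-ATP6 (1.094) were above the complex I genes MT-ND2 (1.066) and MT-ND3 (1.086). MT-CO2 had 7703 and 8375 FPKM with the siRNAs, against 4206 FPKM in the control (0.93 ± 0.21, adjusted p = 0.711), the smallest change of the 13. MT-CO3 had 8499 and 7030 FPKM, against 3849 FPKM in the control (1.01), and MT-CO1 was at 1.07 ± 0.21 (adjusted p = 0.641). MT-ATP6, the proton channel subunit of ATP synthase, had 9103 and 7566 FPKM, against 3543 FPKM in the control (1.23), and MT-ATP8 was at 1.14 ± 0.18 (adjusted p = 0.478). MT-CO2 and MT-CO3 were the 2 messenger RNAs that missed the 2-fold rule, with 1.83 and 1.99 times the control for MT-CO2 and 2.21 and 1.83 times for MT-CO3.

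The ribosomal RNAs of C4-2B MDVR did not move by the same amount. MT-RNR1, the RNA of the small ribosomal subunit, had 2087 and 2028 FPKM in the knockdown libraries, against 1292 FPKM in the control (0.67 ± 0.19, adjusted p = 0.791). MT-RNR2, the RNA of the large subunit, had 6559 and 6681 FPKM, against 2540 FPKM in the control (1.38 ± 0.21, adjusted p = 0.466). The ratio of MT-RNR2 to MT-RNR1 was 3.14 and 3.29 in the C4-2B MDVR knockdown libraries, against 1.97 in the control. In H660 it was 4.54 and 4.53 in the knockdown libraries, against 4.11 in the control. The C4-2B MDVR control had the lowest ratio of the 6 libraries. Only MT-TV, the valine transfer RNA, lies between these genes, which are read into the same precursor.

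In H660 the same siRNAs went with much smaller differences, and PLXND1 itself stayed at 83.5% and 82.6% of its control there. The median change of the 13 messenger RNAs was 0.14 log2 units, beside -0.01 for all genes, with a range from -0.05 for MT-CO3 to 0.45 for MT-ATP8. Of 36 members, 20 were above the control in both knockdown libraries, beside 32.1% of all genes, and 6 were below it in both, beside 38.3%. None was at least 2-fold above in both libraries by ratio, a rule met by 1.07% of all genes, and MT-TR, whose control value is 0, does not count under it. By limma 0 of 36 were called, as were 0% of all genes, and 2 of 36 had an unadjusted p under 0.05, beside 4.14% of all genes. MT-ND1 had 3397 and 3491 FPKM in the H660 knockdown libraries, against 3312 FPKM in the control (0.06 ± 0.20). MT-CYB had 4050 and 4059 FPKM, against 4046 FPKM in the control (0.00 ± 0.26). The ribosomal RNAs were somewhat further apart: MT-RNR2 had 10004 and 10940 FPKM, against 7559 FPKM in the control (0.47 ± 0.21), and MT-RNR1 had 2204 and 2416 FPKM, against 1839 FPKM (0.33 ± 0.19). For both ribosomal RNAs the 2 knockdown values were above the single control, as was the case for 32.1% of all genes, and the adjusted p was 1 for both by limma.

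Set against each other, the knockdown change was larger in C4-2B MDVR than in H660 for all 13 messenger RNAs, with a median difference of 1.17 log2 units. It ranged from 0.69 for MT-ATP8 to 1.64 ± 0.29 for MT-ND1 (limma, adjusted p = 0.985). The lines also differed in the loss of PLXND1 itself, which was at 21.2% and 41.8% of its control in C4-2B MDVR and at 83.5% and 82.6% in H660. A different response to an equal loss was therefore not tested. The test of this difference called 0 of 36 members, as it did 0% of all genes. At an unadjusted p under 0.05 there were 21 of 36 members, beside 4.48% of all genes. This number was 8 and 13 without the H660 siRNA 1 or siRNA 2 library, 6 with no filter, 12 with quantile normalization and 13 with a pseudocount of 0.1, and quantile normalization put the median difference at 0.14. Over both lines together the messenger RNA median was 0.75, with 0 of 36 members called, 0% of all genes called, and 13 of 36 at an unadjusted p under 0.05, beside 4.18% of all genes. Those 13 became 6 and 8 without the C4-2B MDVR siRNA 1 or siRNA 2 library, 4 without the H660 siRNA 2 library, 3 with no filter, 5 with quantile normalization and 7 with a pseudocount of 0.1. Both lines' knockdown libraries were compared with 1 control each, so these values share the same control libraries as the values within the lines.

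**Figure D3:**
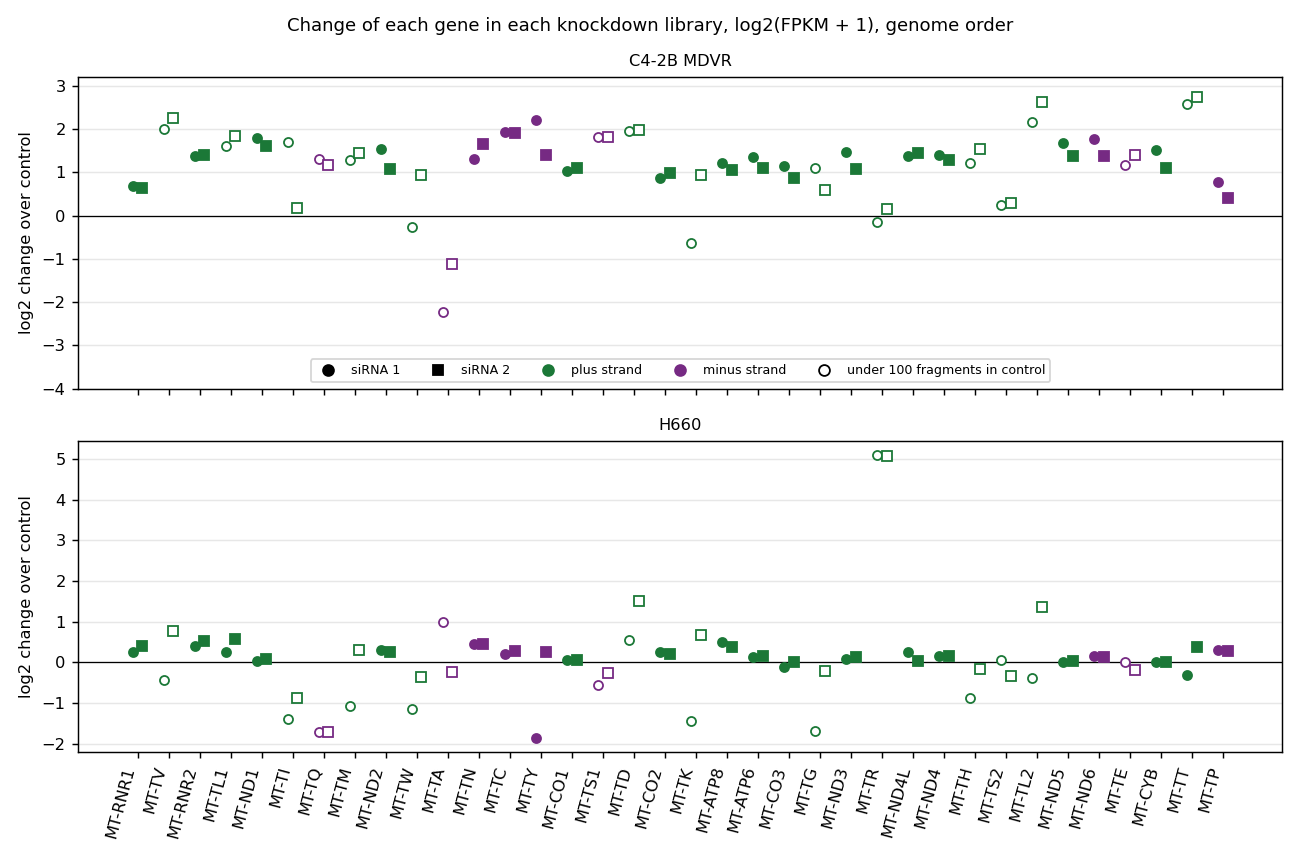
Change of each of the 36 tested genes in each knockdown library relative to the control of its line, in log2(FPKM + 1), in genome order; green marks plus-strand and purple minus-strand genes, and open symbols mark genes with fewer than 100 fragments in the control. In C4-2B MDVR the filled symbols all lie above 0, from MT-TP at the low end, while in H660 most filled symbols lie near 0 and the open symbols scatter.

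The transfer RNA genes are 59 to 75 bases long, shorter than a single read of 150 bases, and 13 of 22 have a neighbouring gene within 3 bases on both sides. A fragment assigned to one of them may therefore hold sequence of a neighbour, and how the authors' counting resolved this is not given in the sources used here. Only 6 of the 22 averaged at least 100 fragments per library, 15 averaged at least 10, and 5 were at 0 in at least 1 library. MT-TF, the gene of the phenylalanine transfer RNA, had 0 to 3 fragments per library and did not pass the filter. Minus-strand genes gave 90.4% to 93.6% of the transfer RNA fragments in the 6 libraries. MT-TN, MT-TC and MT-TP, which carry asparagine, cysteine and proline, gave 83.5% and 85.3% of transfer RNA fragments in the C4-2B MDVR knockdown libraries and 86.1% in the control. In H660 the same 3 genes gave 92.9% and 89.7% with the siRNAs and 90.4% in the control.

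Of these 3 genes, MT-TC had the larger difference in C4-2B MDVR. MT-TC had 2345 and 2300 FPKM in the C4-2B MDVR knockdown libraries, against 611 FPKM in the control (1.92 ± 0.18, adjusted p = 0.268), and 2162 and 2306 FPKM, against 1883 FPKM, in H660 (0.25). MT-TN, whose gene lies 31 bases away on the same strand, had 1279 and 1645 FPKM with the siRNAs, against 519 FPKM in the C4-2B MDVR control (1.48 ± 0.23, adjusted p = 0.478). In H660 MT-TN had 2033 and 2035 FPKM, against 1490 FPKM in the control (0.45). MT-TP, at the other end of the genome, had 869 and 668 FPKM, against 504 FPKM in the C4-2B MDVR control (0.59 ± 0.23, adjusted p = 0.855). Its H660 values were 1532 and 1528 FPKM in the knockdown libraries, against 1248 FPKM in the control (0.29). All 3 had both knockdown libraries above the control in both lines.

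Among the other minus-strand transfer RNAs the values were lower and less even. MT-TY, the tyrosine transfer RNA, which shares 1 base with MT-TC, had 361 and 206 FPKM in the C4-2B MDVR knockdown libraries, against 77.5 FPKM in the control (1.80 ± 0.95, adjusted p = 0.901). In H660 it had 18.1 and 81.7 FPKM, against 67.9 FPKM in the control, so the H660 siRNA libraries lay on opposite sides of their control. MT-TE, which carries glutamate, had 42.5 and 49.97 FPKM with the siRNAs, against 18.2 FPKM in the C4-2B MDVR control (1.30 ± 0.19, adjusted p = 0.466). MT-TS1, a serine transfer RNA, had 31 and 25 fragments, against 8 in the C4-2B MDVR control. MT-TA, which carries alanine, had 1 and 3 fragments, against 10 in the C4-2B MDVR control (-1.67 ± 0.70, adjusted p = 0.866), and MT-TQ, which carries glutamine, had 7 and 5 fragments, against 2. At such numbers the exact binomial 95% interval of the MT-TQ ratio with siRNA 1 ran from 0.686 to 35.5.

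On the plus strand, MT-TL1, a leucine transfer RNA that directly follows MT-RNR2, and MT-TT, the threonine transfer RNA next to MT-CYB, were the most abundant. MT-TL1 had 171 and 204 FPKM in the C4-2B MDVR knockdown libraries, against 55.9 FPKM in the control (1.72 ± 0.22, adjusted p = 0.411). In H660 it had 215 and 267 FPKM, against 179 FPKM in the control (0.42). MT-TT had the largest change in C4-2B MDVR of the members that had fragments in its control, with 88.0 and 98.9 FPKM, against 13.9 FPKM in the control (2.66 ± 0.33, adjusted p = 0.411). That control value was 19 fragments, and the ratio with siRNA 1 was 6.34 with a 95% interval of 3.88 to 10.9. In H660 MT-TT had 57.4 and 92.9 FPKM, against 71.6 FPKM in the control, on both sides of it. MT-TL2, the other leucine transfer RNA, had 5 and 6 fragments, against 0 in the C4-2B MDVR control (2.40 on the log2(FPKM + 1) scale, a value that depends on the pseudocount). With a pseudocount of 0.1 its value was 5.45 and that of MT-TT 2.74, and by voom MT-TL2 was also above MT-TT. MT-TV, the valine transfer RNA between the ribosomal RNA genes, had 51 and 49 fragments in the C4-2B MDVR knockdown libraries, against 12 in the control, and 22 and 58 fragments in H660, against 32 in the control. MT-TM, the methionine transfer RNA, had 21 and 19 fragments, against 8 in the C4-2B MDVR control, and 5 and 17 fragments in H660, against 13 in the control. Both genes were thus above the control with both siRNAs in C4-2B MDVR and on both sides of it in H660. MT-TW, MT-TK and MT-TS2, which carry tryptophan, lysine and serine, stayed at 0 to 10 fragments in every library, too few to show a difference at this depth.

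MT-TR, the arginine transfer RNA between MT-ND3 and MT-ND4L, had the lowest adjusted p of the members in H660 without passing the threshold. It had 51 and 55 fragments (33.4 and 32.8 FPKM) in the H660 knockdown libraries and 0 in the H660 control. Against the 3 fragments that a count of 0 allows, which are 1.86 FPKM in that library, the knockdown values were 17.9-fold and 17.6-fold higher. These 2 folds leave out the counting error of the knockdown fragments. With it, MT-TR had lower limits of 14.0 and 13.9 for the ratio to the control (exact binomial 95% interval). Its fitted change was 5.09 log2 units (limma, adjusted p = 0.0772). In C4-2B MDVR MT-TR had 28 and 28 fragments, against 32 in the control (0.00 ± 0.19). The H660 control was thus the 1 library of 6 without a fragment on this gene, while its neighbours MT-ND3 and MT-ND4L had 28388 and 25587 fragments there. It passed the threshold under 5 of the alternatives, with adjusted p = 0.011 when no filter was used, and was far from it by voom (adjusted p = 1) and without any 1 knockdown library (0.249 to 0.548). The next most positive H660 change was that of MT-TD, the aspartate transfer RNA, with 26 and 57 fragments, against 18 in the control (1.04 ± 0.42). MT-TQ and MT-TI, which overlap by 3 bases on opposite strands, had the most negative: MT-TQ had 0 and 0 fragments, against 4 in the control (-1.70), and MT-TI, which carries isoleucine, had 11 and 18, against 33 (-1.13 ± 0.69). All of these counts were low.

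Ratios within a library do not depend on its total, and they show which transcripts made up the mitochondrial RNA. Complex I genes gave 31.7% and 29.3% of mitochondrial fragments in the C4-2B MDVR knockdown libraries, against 26.3% in the control. Complex IV genes gave 38.0% and 41.0%, against 44.7% in the control. The mean FPKM of complex IV over that of complex I was 2.31 and 2.65 in the C4-2B MDVR knockdown libraries, against 3.28 in the control. In H660 this ratio was 3.24 and 3.33, against 3.43 in the control. The single pair MT-CO1 over MT-ND1 was at 2.54 and 2.99, against 4.27 in the C4-2B MDVR control, and at 3.86 and 3.71, against 3.77, in H660. No test of knockdown against control was run on these ratios. In C4-2B MDVR both siRNA libraries lay on the same side of the control in each of these ratios, and in H660 they lay closer to it.

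The strands also took different shares. Minus-strand genes gave 1.66 and 1.48 fragments per 100 plus-strand fragments in the C4-2B MDVR knockdown libraries, against 1.23 in the control. In H660 the values were 1.77 and 1.71, against 1.72 in the control. The FPKM ratio of MT-ND6 to MT-ND5, which lie end to end on opposite strands, was 1.08 and 1.01 with the siRNAs, against 1.00 in the C4-2B MDVR control, and 1.26 and 1.20, against 1.14, in H660. Whether the libraries kept the strand is not given in the sources used here, so reads of a gene and of the RNA opposite to it cannot be told apart. Transfer RNA fragments per 100 messenger RNA fragments were 0.543 and 0.604 in the C4-2B MDVR knockdown libraries, against 0.466 in the control, and 0.607 and 0.641, against 0.537, in H660. Ribosomal fragments per messenger RNA fragment were 0.180 and 0.201, against 0.185, in C4-2B MDVR, where the siRNA libraries straddled the control. They were 0.252 and 0.275, against 0.207, in H660, where both were above it. These ratios between classes also depend on any selection for poly(A) tails, which is not described.

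**Figure D4:**
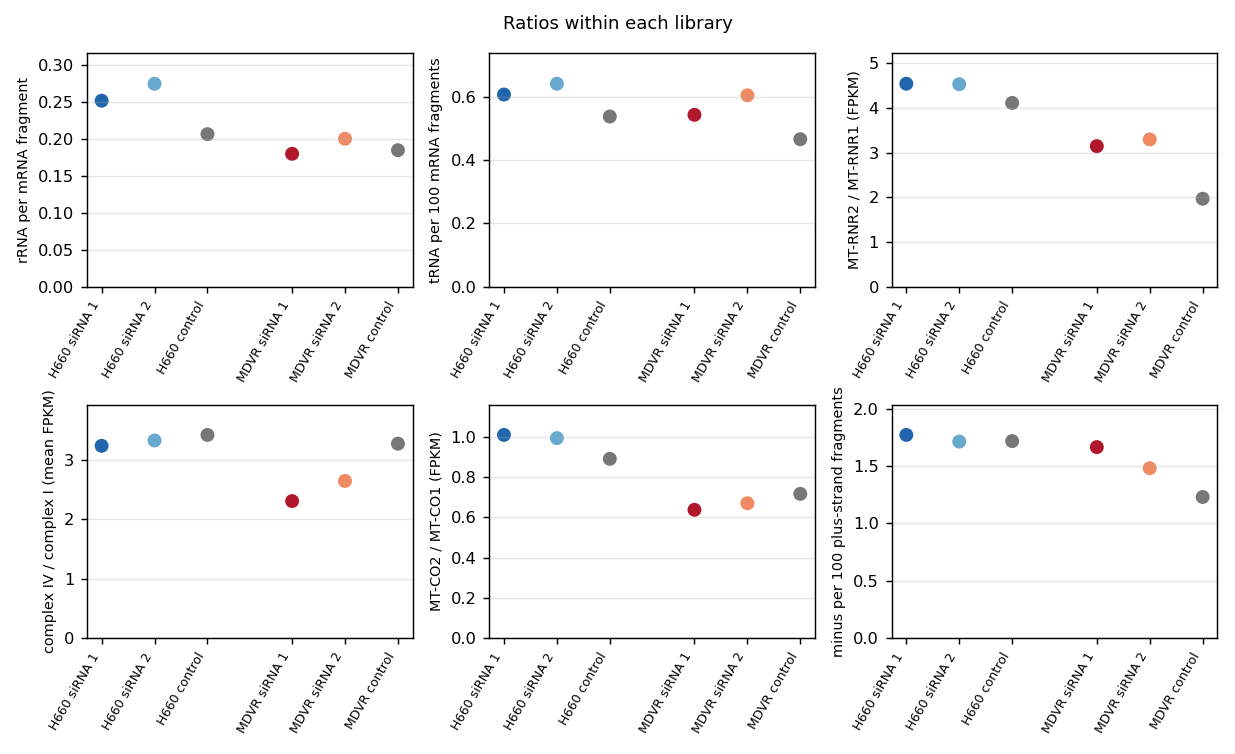
Ratios between mitochondrial classes, genes and strands in each library, with 1 point per library; axes start at 0. The ratio of MT-CO2 to MT-CO1 is 0.892 to 1.01 in H660 and 0.638 to 0.718 in C4-2B MDVR, and the ratio of MT-RNR2 to MT-RNR1 is lowest in the C4-2B MDVR control, at 1.97.

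The change in C4-2B MDVR was also set against simple gene properties across the 13 messenger RNAs, as a description over genes that share libraries and a control. Pearson's r was -0.01 with GC content (Spearman's rho -0.03), 0.13 with gene length (rho 0.13) and 0.16 with position along the genome (rho 0.35). With the log2 level in the control it was -0.42 (rho -0.62). The control level also enters the change itself, so these share their noise.

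The mitochondrial share was higher in the H660 libraries than in those of C4-2B MDVR. Mitochondrial genes gave 9.23% ± 0.566 of fragments in H660 and 5.88% ± 2.19 in C4-2B MDVR (SD, n = 3 each), and every H660 library was above every C4-2B MDVR library. The H660 mean was 1.57 times that of C4-2B MDVR, and 1.29 times without the C4-2B MDVR control. An exact two-sided permutation test of 3 against 3 libraries gave p = 0.10, the smallest it can reach (0.133 adjusted over 8 measures). The H660 libraries were also above every C4-2B MDVR library in ribosomal per messenger RNA fragments, in the MT-RNR2 to MT-RNR1 ratio, in MT-CO2 to MT-CO1, in MT-ND6 to MT-ND5 and in minus-strand per plus-strand fragments, each with the same exact p. The complex IV to complex I ratio was 3.33 ± 0.0918 in H660 and 2.74 ± 0.492 in C4-2B MDVR (exact permutation p = 0.2, adjusted 0.229). The transfer to messenger RNA ratio per 100 fragments was 0.595 ± 0.0528 in H660 and 0.538 ± 0.0695 in C4-2B MDVR (exact permutation p = 0.4).

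By the fit across all genes, 2 of 36 members passed the threshold with at least a 2-fold difference between the lines, beside 38.0% of all genes. MT-TP rose in H660 relative to C4-2B MDVR, by 1.11 ± 0.17 log2 units (limma, adjusted p = 0.00146), with 1436 ± 163 FPKM in H660 and 680 ± 183 FPKM in C4-2B MDVR (SD, n = 3 each). MT-TE was lower in H660, at 11.8 ± 0.939 FPKM, against 36.9 ± 16.6 FPKM in C4-2B MDVR (-1.45 ± 0.29, adjusted p = 0.00483), though this is 19 to 21 fragments per H660 library. For both genes the 2 lines did not overlap, and both were called under every alternative run. Groups that did not overlap were found for 7 of 36 members with H660 above, beside 37.1% of all genes, and for 1 of 36 with H660 below, beside 37.4%. The 7 were MT-ATP8, MT-CO2, MT-CO3, MT-ND6, MT-RNR2, MT-TP and MT-TS2, and the 1 was MT-TE. The share of members that differed was therefore below that of all genes by each of these rules.

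All 13 messenger RNAs had a positive difference of H660 over C4-2B MDVR, with a median of 0.46 log2 units, beside -0.0035 for all genes, and quantile normalization put that median at 0. MT-CO2 had the largest, 0.94 ± 0.23, with 12418 ± 1133 FPKM in H660 and 6761 ± 2238 FPKM in C4-2B MDVR (SD, n = 3 each; adjusted p = 0.0105, under 2-fold). MT-ND4L had the smallest, 0.17 ± 0.29 (adjusted p = 0.632). MT-RNR2 was at 0.96 ± 0.25 (adjusted p = 0.0132, under 2-fold) and MT-RNR1 at 0.28 ± 0.16 (adjusted p = 0.161). In this additive fit, leaving out either control, that of C4-2B MDVR or that of H660, leaves the line difference to the knockdown libraries alone. The messenger RNA median was then 0.10, and 5 of the 13 had the opposite sign. These were MT-CYB, MT-ND1, MT-ND3, MT-ND4 and MT-ND4L. MT-CO2 (0.70) and MT-RNR2 (0.66) kept their sign there, and 4 of 36 members were then called, MT-TP, MT-TE, MT-TQ and MT-TY. With all libraries 38.0% of all genes were called, and the share without a control is not given here. MT-TQ had 0 and 0 fragments in the H660 knockdown libraries, against 7 and 5 in those of C4-2B MDVR. MT-TY had 18.1 and 81.7 FPKM in the H660 knockdown libraries, a wide spread.

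Most genes that make and maintain mitochondrial RNA and its protein partners are nuclear, and 11 lists of them were set beside the members. In C4-2B MDVR none of the lists had a gene called in the knockdown comparison by limma, as was true of all genes tested. MRPL11 and TOMM40, both lower, were the 2 genes with an unadjusted p under 0.05. No list gene was higher at that level, beside 3.74% of all genes. The share of all genes that were lower at that level is not given here. The nuclear subunits of complexes I, III, IV and V had a median change of 0.13 log2 units over 76 genes, of which 60 had a fitted change above 0, as 55.9% of all genes did, beside a median of 1.31 for the mitochondrially encoded subunits and 0.02 for all genes. The mitochondrial ribosomal proteins were at -0.01 over 77 genes. NDUFB8, a complex I subunit, had 8.47 and 5.64 FPKM with the siRNAs, against 4.29 FPKM in the C4-2B MDVR control (0.58 ± 0.27, adjusted p = 0.892). COX6C, a complex IV subunit, had 58.6 and 59.8 FPKM, against 42.7 FPKM in the control (0.46 ± 0.19, adjusted p = 0.865). MRPL11, of the large ribosomal subunit, had 13.02 and 14.4 FPKM, against 19.2 FPKM in the control (-0.46 ± 0.15, adjusted p = 0.822).

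The lists for transcription, processing and decay of mitochondrial RNA stayed near the median of all genes in C4-2B MDVR. The 10 transcription genes had a median of 0.03, the 20 RNA processing genes -0.07 and the 9 genes of RNA stability and decay 0.01. TFAM, which packages mitochondrial DNA and starts its transcription, had 7.33 and 9.64 FPKM with the siRNAs, against 9.68 FPKM in the control (-0.18 ± 0.22, adjusted p = 0.99). FASTKD1, an RNA-binding protein of mitochondria, had 5.35 and 5.49 FPKM, against 7.34 FPKM in the control (-0.38 ± 0.15, adjusted p = 0.865). PNPT1, a ribonuclease that degrades mitochondrial RNA, had 10.4 and 11.7 FPKM, against 14.0 FPKM in the control (-0.31 ± 0.16, adjusted p = 0.898). Both siRNA libraries lay below the control for FASTKD1 and PNPT1, and by less than 1.5-fold.

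The remaining lists had medians between -0.12 and 0.06 in C4-2B MDVR. In the import list, TOMM40, the channel of the outer membrane, had 13.8 and 16.3 FPKM, against 23.2 FPKM in the control (-0.60 ± 0.17, adjusted p = 0.801). Among regulators of mitochondrial biogenesis, MYC had 54.0 and 146 FPKM, against 115 FPKM in the control, so the siRNA libraries lay on both sides of it. Among DNA maintenance genes, POLG, the mitochondrial DNA polymerase, had 18.9 and 24.5 FPKM, against 17.1 FPKM in the control (0.31 ± 0.25, adjusted p = 0.955). IARS2, which charges the isoleucine transfer RNA, had 63.6 and 80.3 FPKM, against 90.8 FPKM (-0.34 ± 0.20, adjusted p = 0.904). TRMU, which modifies mitochondrial transfer RNAs, had 5.21 and 4.75 FPKM, against 6.85 FPKM (-0.39 ± 0.15, adjusted p = 0.851). NDUFAF4, a complex I assembly factor, had 4.61 and 5.04 FPKM, against 6.89 FPKM (-0.44 ± 0.16, adjusted p = 0.849).

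Between the lines the medians of the nuclear lists lay on the other side from that of the mitochondrial messenger RNAs. Rescaling without mitochondrial and short RNA genes moved the median of all genes to 0.24 and those of the transcription, transfer RNA modification and biogenesis lists to 0.02, 0.04 and 0.03, and left the others negative. The nuclear subunits had a median of -0.71 log2 units for H660 over C4-2B MDVR, with 20 of 76 lower and 1 higher past the threshold, beside 17.9% lower and 20.1% higher among all genes. Of 77 mitochondrial ribosomal protein genes 26 fell and 0 rose in H660, with a median of -0.70. Of 27 assembly genes 11 fell and 2 rose, with a median of -0.86. COX14, an assembly factor of complex IV, had 12.3 and 12.99 FPKM in the H660 knockdown libraries and 15.4 FPKM in the H660 control. In C4-2B MDVR it had 48.0 and 41.3 FPKM with the siRNAs and 33.7 FPKM in the control, a difference of -1.52 between the lines (adjusted p = 0.000372). TFAM went the other way, at 0.72 (adjusted p = 0.00857, under 2-fold), with 17.7 and 15.5 FPKM in the H660 knockdown libraries and 12.8 FPKM in the H660 control. Among the other lists, 7 of 21 import genes, 5 of 20 DNA maintenance genes and 5 of 22 aminoacyl-tRNA synthetases fell, and 0, 1 and 1 rose. Of 20 RNA processing genes 4 fell and 0 rose. In the remaining lists 3 of 20 transfer RNA modification genes, 2 of 10 transcription genes, 2 of 9 genes of RNA stability and decay and 2 of 9 biogenesis regulators fell, and 0 rose. Over the knockdown libraries alone these medians were -0.74 for nuclear subunits, -0.69 for ribosomal proteins and -0.92 for assembly genes.

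**Figure D5:**
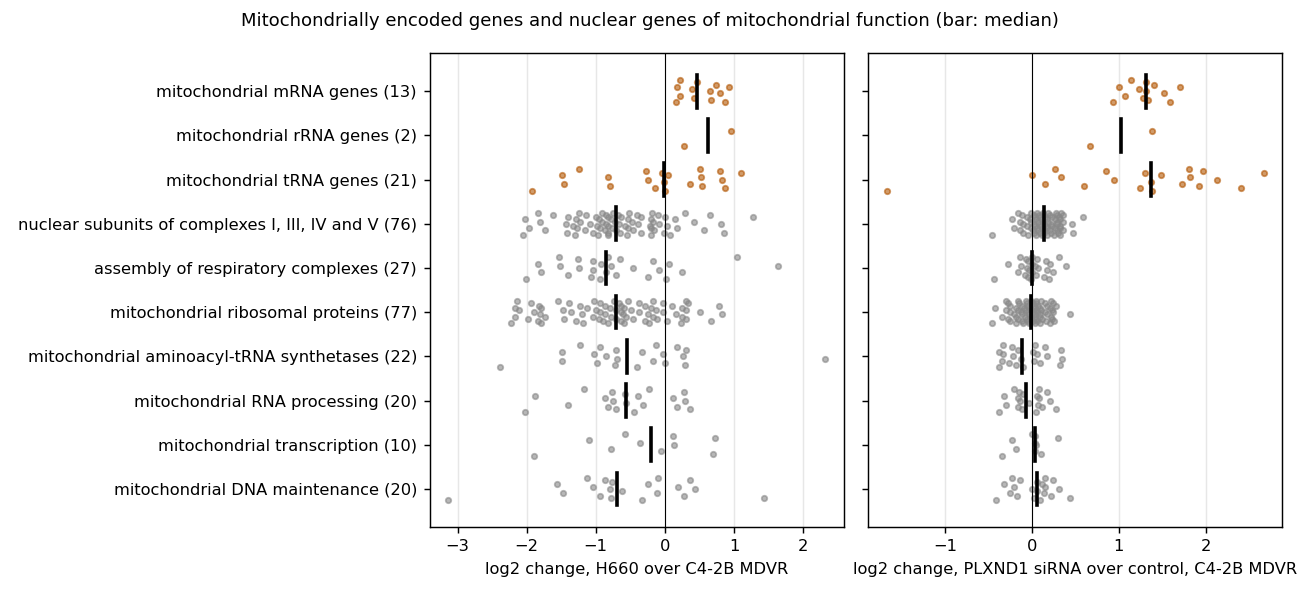
Log2 change of each gene in the mitochondrially encoded classes (orange) and in 7 nuclear lists (grey), for H660 over C4-2B MDVR (left) and for PLXND1 siRNA over control in C4-2B MDVR (right), with the median of each set as a bar. On the left the nuclear subunits have a median of -0.71 and the mitochondrial messenger RNAs 0.46, and on the right 0.13 and 1.31.

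The nuclear genome also holds copies of mitochondrial genes, and near-identical copies can share reads with the originals. Of 394 such pseudogenes found by symbol, 4 averaged at least 1 FPKM, all of them on chromosome 1. MTATP6P1, a copy of MT-ATP6, had 255 and 208 FPKM in the C4-2B MDVR knockdown libraries, against 95.1 FPKM in the control, and 344 and 276 FPKM, against 226 FPKM, in H660. MTND2P28, a copy of MT-ND2, had 177 and 142 FPKM with the siRNAs, against 68.8 FPKM in the C4-2B MDVR control. The other 2 were MTCO1P12 and MTND1P23. In C4-2B MDVR all 4 copies were above the control with both siRNAs, as their originals were. In H660 this held for MTATP6P1 and MTND2P28, while MTCO1P12 had 544 and 644 fragments, against 587 in the control, and MTND1P23 had 8 and 4 fragments, against 14. All copies together equalled 0.409% to 0.502% of the mitochondrial fragments, and since reads of the copies and the originals may be split between them, the values of the copies are uncertain.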

How the data were processed

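Per the labels' protocols, 1 µg of total RNA went into each library, and both ends were read for 150 bases. HISAT, Cufflinks and the build hg18 are named, per the submitters' processing notes. Versions are not given in the sources used here. The deposited values are FPKM, computed by the authors for 58735 gene IDs. All 58735 are in GENCODE 29, an annotation of GRCh38, from which names, exon lengths, coordinates and sequences were taken.

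FPKM times exon length gave whole fragments, within 0.05, for 100% of genes above 0 in every library, so fragment numbers were recovered. The total implied by the FPKM step was 0.926, 0.920 and 1.01 times the recovered total in the C4-2B MDVR siRNA 1, siRNA 2 and control libraries, and 1.07, 1.07 and 1.08 times in H660. This factor moved with the treatment in C4-2B MDVR, and limma's voom on fragments, which removes it, gave a messenger RNA median of 1.17.

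The main fit was limma 3.58.1 in R 4.3.3 on log2(FPKM + 1) with an intensity trend, for the 15638 genes that averaged 1 FPKM or more in either line, two-sided, with Benjamini-Hochberg adjustment and a threshold of 0.05. A fold change on this scale understates that of low genes. Line-specific effects and their contrast came from a 4-group fit, which leaves 2 residual degrees of freedom and assumes that each single control varies like the knockdown pairs. The line difference, which also had to reach 2-fold, and the effect over both lines came from an additive fit. Ratios and permutation tests used Python 3.11.15 with scipy 1.17.1 and pandas 2.3.3. The fit was tested on simulated data in which each control had the same noise as the knockdown libraries. That test therefore cannot speak to the assumption about the single controls. The siRNA 1 and siRNA 2 libraries of a line differed by more than counting noise (chi-square per degree of freedom over members 344 in C4-2B MDVR and 87.4 in H660).

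Named genes were all messenger and ribosomal RNAs. Of the transfer RNAs they were the 6 highest, those on the minus strand and the 2 highest and 2 lowest changes in each line, and the remaining ones are named with fragment numbers so that every member is accounted for. Of nuclear lists they were drawn from the 4 with the largest change in C4-2B MDVR. The members and lists were chosen with earlier results of these data known. Anticodons were placed by searching each transfer RNA for its known triplet in the anticodon loop.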

Additional observations from a re-analysis of the deposited data

Results flagged for a closer look

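For 5 transfer RNA genes, both knockdown libraries were above the control in C4-2B MDVR and both were below it in H660. That is 5 of 36 members tested, beside 11.9% of all genes tested, so the share is near that of all genes. The difference of the knockdown change (C4-2B MDVR minus H660, log2 units) was 2.94 for MT-TQ, 2.23 for MT-TS1, 2.07 for MT-TI, 1.89 for MT-TH and 1.79 for MT-TG. By limma none passed after Benjamini-Hochberg adjustment, with adjusted p = 0.385 for MT-TQ, 0.497 for MT-TS1 and 0.985 for the others. All 5 rest on 0 to 51 fragments per library. MT-TH, the histidine transfer RNA, had 40 and 41 fragments, against 17 in the C4-2B MDVR control, and 21 and 39, against 42, in H660. MT-TG, the glycine transfer RNA, had 39 and 22 fragments, against 18, in C4-2B MDVR and 14 and 46, against 51, in H660.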

How the results depend on the processing

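The messenger RNA median of C4-2B MDVR was 1.09 to 1.40 without 1 library of the knockdown pair, and no setting run called a member there. Quantile normalization, which ties the top ranks, put the median at 0.0081 in C4-2B MDVR, 0 in H660, 0.14 for their difference and 0.034 for both lines. In H660 the median was 0.13 with median-ratio scaling, 0.12 after rescaling, 0.13 with voom and 0.19 with a replicate block on siRNA number. Leaving out a library gave 0.125 to 0.140 in H660 and 0.605 to 0.839 over both lines.

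Members called in H660 numbered 1 with a pseudocount of 0.1, with a mean over 6 libraries as filter, with quantile normalization and after rescaling, and 2 with no filter, which also gave 2 for the difference between lines. For H660 against C4-2B MDVR the count was 7 with quantile normalization, 9 after rescaling, 6 with voom and 8 with voom on nuclear totals, and 2 to 5 without 1 library. The main fit called 2 of 36 members in that comparison, beside 38.0% of all genes tested. The shares of all genes called under the other settings are not given here, so these counts show no excess among the members. MT-TR was the member called in H660, with MT-TQ added under no filter. Between the lines, rescaling and voom moved the median of all genes to 0.24 and 0.17, and voom on nuclear totals to 0.22.

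The fold of the mitochondrial share over the control (2.11 in C4-2B MDVR, 1.11 in H660) was 1.90 and 1.08 on summed FPKM, and 1.07 in H660 over protein-coding fragments. The cause of these moves was not tested. Across the lines, siRNA 1 minus siRNA 2 differences correlated at -0.00 over all genes and 0.09 over the members, and the replicate block changed no call. With 1 such difference per line, and PLXND1 at 83.5% and 82.6% of its control in H660, this cannot show whether the siRNA numbers pair the libraries. Without quantile normalization, no messenger or ribosomal RNA turned its sign in C4-2B MDVR.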
